A study of Bos taurus with 48 samples.

Results

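The change in bovine skeletal muscle between late fetal life and birth was taken from 6 of the 48 arrays of the series: the 3 labelled 195 days of gestation and the 3 labelled birth, which the labels place at 280 days of gestation. All 6 lie on the same 3 slides, with 1 array of each stage on every slide. Each array carried longissimus dorsi biopsy RNA (the muscle called LTL in the study) of 1 Piedmontese and 1 Wagyu animal, in Cy3 and Cy5. According to the study both were crosses with Hereford, so no purebred of either sire breed was measured, and the labels give no treatment and no sex for these animals. The 12 channels belong to 11 animal codes. At 195 d these were Piedmontese GP041A and GP041B and Wagyu GW024, GW067 and GW600. GP041A was on 2 of the 3 arrays and entered as the mean of its 2 channels, and GP041A and GP041B share a number, so that they may not be independent fetuses. At birth they were Piedmontese GP147, GP148 and GP193 and Wagyu GW071, GW146 and GW175. Fetuses and newborns were different animals, so each difference is one between animals and not a change followed within an animal.

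In a fetus of this age nearly all muscle fibres have formed, and their contractile proteins are still largely embryonic and neonatal isoforms. Towards birth these are exchanged for adult isoforms, the acetylcholine receptor of the endplate swaps its gamma for its epsilon subunit, and myoblast proliferation slows. Circulating cortisol and thyroid hormone rise before birth in ruminants, and at delivery the placental supply of glucose ends and milk fat becomes a main fuel.

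The measured value is a background-corrected, normalized log2 intensity, so that a difference of 1 is a 2-fold change, and p-values measure the spread between these 11 animals. A gene was called when its adjusted p in limma (Benjamini-Hochberg over 14833 genes, two-sided, with dye and cross in the model and the array as a random block) was below 0.05. Between 63.4% and 75.9% of the spots of a 195 d channel were well above background, and 53.0% to 76.4% of those of a birth channel. None was saturated. The median spot signal was 2.66 to 4.77 times the median background at 195 d and 2.07 to 3.82 times at birth. Birth channels thus tended to be dimmer, and the part of this in the differences between stages was not tested. Correlations across genes were 0.989 to 0.994 between fetuses, 0.968 to 0.991 between newborns and 0.888 to 0.924 between the stages. The Wagyu newborns GW071 and GW175 stood apart. They correlated at 0.968 to 0.978 with the other 4 newborns. With the fetuses they correlated at 0.908 to 0.924, against 0.888 to 0.903 for the other newborns. Both were labelled with Cy5, as was the newborn GP148. Their channels had the highest signal over background at birth, 3.00 and 3.82, against 2.07 to 2.53 in the other newborns. The part of signal strength in their position was not tested. The SD over newborns exceeded that over fetuses in 74.5% of genes, with medians of 0.224 and 0.146. The tissue label held: the mean intensity over 13 muscle fibre markers (among them actin, creatine kinase, titin and nebulin) was 14.3 to 14.6 in fetuses and 14.8 to 15.2 in newborns, and every marker was well above background in at least 1 channel of each stage.

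**Figure D1:**
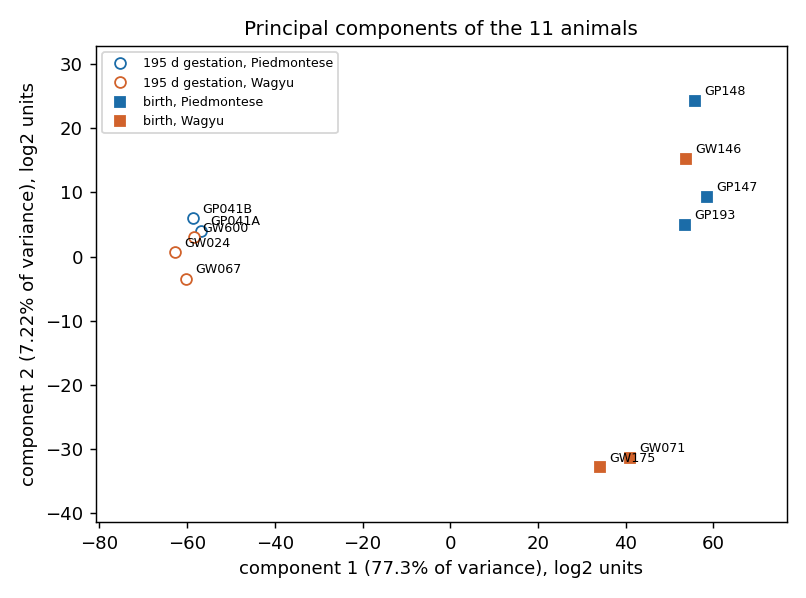
Principal components of the 11 animals over 14833 genes, in log2 units, with open circles for 195 d, filled squares for birth, blue for Piedmontese and orange for Wagyu. Component 1, with 77.3% of the variance, separates the stages, from -62.67 to -56.77 in fetuses and from 34.15 to 58.49 in newborns. GW071 and GW175 lie apart from the other newborns on component 2, with 7.22% of the variance.

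The stages differed in more genes than not. Of 14833 genes 8263 were called, which is 55.7%, with 4208 (28.4%) higher and 4055 (27.3%) lower at birth. A difference of at least 2-fold was found in 2947 of them, 1316 higher and 1631 lower. The animals of the stages did not overlap in 7007 genes (47.2%). Counts of list members below stand against these shares, and the lists were chosen with earlier results of these data known. Within each of the 3 slides the difference had the sign of the fit in 8255 of the 8263 called genes (99.9%). The fit is made from these same differences and the genes were picked by it, so that this is no separate support. Without GW071 and GW175 there were 8556 calls. The count was lower without the 195 d array of slide 2, which carries GP041B and GW600 (5344). It was also lower with GP041A and GP041B as 1 animal (5987) and with array-by-dye median centring (4892). With the signal processed by Feature Extraction 63.5% of 8668 calls were higher at birth, against 50.9% here. The median difference over all genes was 0.0515 here, 0.185 with median centring and 0.357 with the processed signal, so that small differences depend on the scale.

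The largest falls were in the developmental contractile isoforms. Of 17 genes of this list that were tested, 11 fell, 3 rose and 3 did not pass, with a median difference of -1.36. MYL4, the embryonic and atrial alkali light chain of myosin, measured 15.57, 15.80, 15.64, 16.16 and 16.08 at 195 d in GP041A, GP041B, GW024, GW067 and GW600 (the order used for all genes below), and 7.72 at the lowest, 7.92 at the median and 8.41 at the highest of the 6 newborns. The stages lay far apart, and MYL4 fell by 7.89 ± 0.17 (SE) on the log2 scale, or 237-fold (limma adjusted p = 3.99e-08). MYH3, the embryonic myosin heavy chain, measured 17.61, 17.39, 17.67, 17.79 and 17.68 in the fetuses and 8.94, 10.46 and 11.40 at the lowest, median and highest newborn. The newborns spread over more than 2 units while the fetuses lay within 0.5, and it fell by 7.48 ± 0.31 or 179-fold (adjusted p = 7.65e-07).

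MYH8, the neonatal heavy chain, measured 13.77, 13.88, 13.61, 12.16 and 13.57 at 195 d, and 6.85, 6.95 and 7.09 at birth. It fell by 6.56 ± 0.33 (adjusted p = 1.58e-06) to near the lower end of the scale, where only 1 of 6 birth channels was well above background. MYL7, an atrial regulatory light chain, measured 11.34, 12.70, 9.51, 9.49 and 10.18 in the fetuses and was not well above background in any birth channel. By the stage means it was at least 14.0-fold higher at 195 d. Genes had to be above background in at least 6 of 12 channels, and MYL7 passed only through its 195 d channels. Its call is therefore no independent support. ACTC1, the cardiac actin that fetal skeletal muscle also makes, fell by 4.04 (adjusted p = 0.00147), and the cardiac troponin TNNT2 by 2.44 (adjusted p = 2.06e-05). The 3 members that rose were MYBPH, a myosin binding protein, by 0.92, TNNC1, the slow and cardiac troponin C, by 0.89, and desmin (DES) by 0.42. The stages overlapped in MYBPH and DES. The call was lost in 6 of 20 alternatives for MYBPH, in 4 for DES and in 2 for TNNC1.

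The array reads each of these genes through 1 or 2 probes of 60 bases, and related isoforms were told apart by those letters alone. The probes of the isoform pairs with an open reading frame are given 5′ to 3′ to show what was hybridised. Capitals mark the longest run that also occurs in the probe of any other gene on the array, 12 to 15 bases in these 7 probes.
MYH8: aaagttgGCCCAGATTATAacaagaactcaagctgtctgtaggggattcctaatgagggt
MYH1: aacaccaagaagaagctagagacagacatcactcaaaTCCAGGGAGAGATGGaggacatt
TNNT1: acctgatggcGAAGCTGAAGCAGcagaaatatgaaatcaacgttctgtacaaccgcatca
TNNT2: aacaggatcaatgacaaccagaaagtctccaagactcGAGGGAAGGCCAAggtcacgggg
TNNT3: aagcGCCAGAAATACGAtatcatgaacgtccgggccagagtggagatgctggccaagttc
HBG: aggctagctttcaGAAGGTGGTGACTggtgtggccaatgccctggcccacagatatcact
HBB: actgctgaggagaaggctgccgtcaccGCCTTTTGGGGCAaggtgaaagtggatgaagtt
The longest run shared between MYH8 and this MYH1 probe was 6 bases, and between HBG and HBB also 6. Letters were compared between probes and not with transcripts, so that binding of a probe to the RNA of another isoform was not tested.

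The adult isoforms changed much less than the developmental ones. MYH1, the heavy chain of fast IIx fibres, measured 16.45, 15.79, 15.87, 16.93 and 16.46 at 195 d and 16.77, 17.05 and 17.29 at birth. The stages overlapped, and the rise of 0.77 ± 0.27 (adjusted p = 0.0334) was unequal between its 2 probes, at 1.31 for the one printed above and 0.19 for the other. MYH7, the slow heavy chain, measured 16.66, 15.82, 16.81, 17.37 and 17.31 and then 16.63, 17.23 and 17.38, a difference of 0.42 ± 0.18 that was not called (adjusted p = 0.0705). Both results depended on the processing. Over 20 alternatives MYH1 differed by 0.62 to 1.86 and lost its call in 6. MYH7 differed by 0.28 to 1.46 and stayed uncalled in 15. MYH2, TNNI1 and TNNI2 were not matched to a probe by name. Of 14 fast fibre genes 7 rose and 2 fell. Those that rose most were MYBPC2, the fast myosin binding protein C, by 1.27, MYLK2, the skeletal myosin light chain kinase, by 1.12, and ACTN3, the alpha-actinin of fast Z-discs, by 1.05.

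Both fast genes that fell, TNNT3 by 0.53 and MYL1 by 0.23, reversed with another scaling, to 0.25 and 0.57 with median centring and to 0.48 and 0.84 with the processed signal. Of 12 slow fibre genes 7 rose and 2 fell. ANKRD2, a stretch-responsive ankyrin repeat protein of slow fibres, measured 9.997, 10.77, 10.04, 10.78 and 10.18 at 195 d and 13.55, 13.89 and 14.26 at birth, and rose 11.6-fold (adjusted p = 3.52e-06). MYL3, the slow and ventricular light chain, rose by 1.63, ATP2A2, the slow calcium pump, by 1.56 (0.74 and 2.33 in its 2 probes), and TNNT1, slow troponin T, by 1.24, without overlap between the stages. CASQ2, the cardiac and slow calsequestrin, went the other way: it measured 12.17, 12.32, 12.34, 11.87 and 12.79 in fetuses and 8.15, 8.601 and 9.13 in newborns, and fell 13.5-fold (adjusted p = 2.28e-06). When the 12 arrays of the slides were fitted together, which adds the spread of the earlier stages, 2 fast and 2 slow genes rose.

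**Figure D2:**
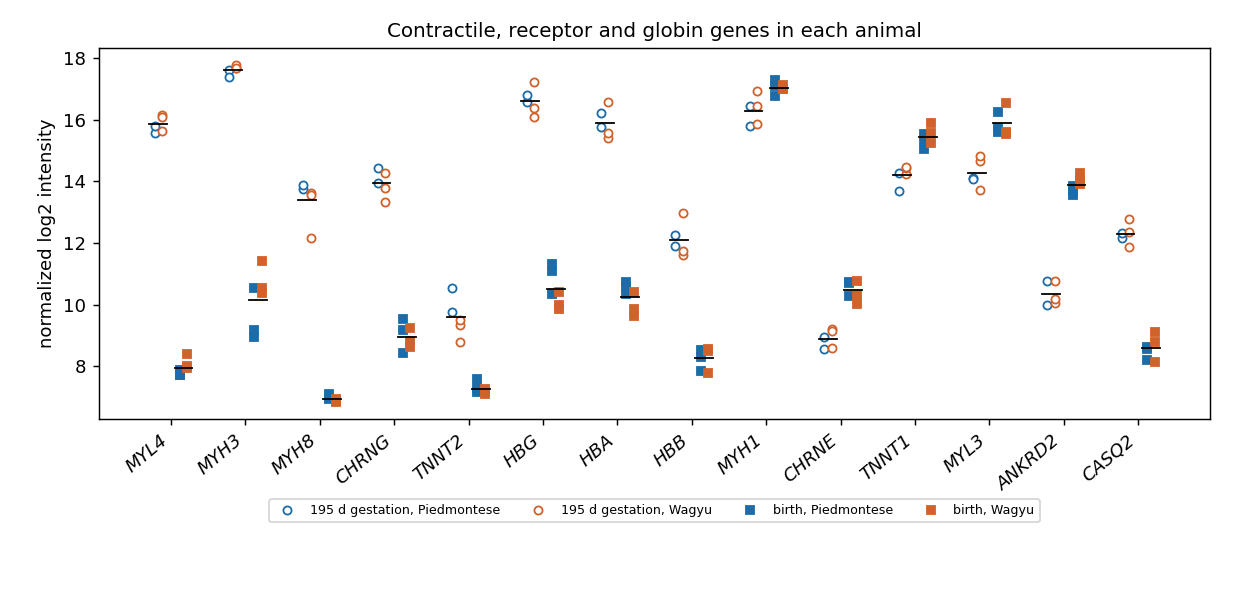
Normalized log2 intensity of 14 contractile, receptor and globin genes in each of the 11 animals, with open circles for 195 d, filled squares for birth, blue for Piedmontese, orange for Wagyu and bars for the stage means. MYL4 goes from 15.57 or more in every fetus to 8.41 or less in every newborn, whereas MYH1 overlaps between the stages and ANKRD2 and TNNT1 rise.

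The fetal and adult subunits of the acetylcholine receptor moved in opposite directions in whole muscle RNA, which does not show where on the fibre they lie. CHRNG, the fetal gamma subunit, measured 14.43, 13.94, 14.27, 13.32 and 13.80 at 195 d and 8.42, 8.998 and 9.53 at birth, and fell by 5.03 ± 0.33 or 32.7-fold (adjusted p = 4.83e-06). CHRNE, the adult epsilon subunit, measured 8.57, 8.93, 9.21, 9.16 and 8.59 and then 10.03, 10.51 and 10.76, and rose by 1.62 ± 0.24 or 3.08-fold (adjusted p = 0.000431). No newborn overlapped with a fetus in either gene. Of the subunits both receptor forms share, the delta subunit CHRND fell by 3.64 and the beta subunit CHRNB1 by 0.63, and the alpha subunit CHRNA1 differed by 0.36 (adjusted p = 0.329). Of 13 genes of calcium handling and endplate maturation 6 rose and 4 fell. JPH1, which ties the T-tubule to the calcium store, rose by 1.97, the muscle chloride channel CLCN1 by 1.31 and the calcium release channel RYR1 by 0.91. MUSK, the kinase that organises the endplate, fell by 0.34, and CACNB1, a subunit of the calcium channel, by 0.74.

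The globins fell with the muscle isoforms. HBG, the fetal globin of the beta cluster, measured 16.57, 16.82, 17.21, 16.09 and 16.40 at 195 d and 9.84, 10.37 and 11.32 at birth, and fell by 6.09 ± 0.27 or 68.0-fold (adjusted p = 1.01e-06). HBA, the alpha globin, measured 15.77, 16.21, 16.58, 15.39 and 15.58 and then 9.62, 10.38 and 10.72, and fell 49.4-fold (adjusted p = 1.25e-06). HBB, the adult beta globin that replaces HBG in red cells, also fell, from 11.89, 12.26, 12.96, 11.61 and 11.74 to 7.79, 8.40 and 8.58, by 3.80 ± 0.33 (adjusted p = 2.14e-05). All 3 globins, each read through 1 probe, were thus lower in every newborn, the adult form included. Binding of the HBB probe to HBG RNA was not tested. ALAS2, the first enzyme of haem synthesis in red cells, fell by 2.36 (adjusted p = 5.61e-05). Over the 8 erythroid markers tested 4 fell and 1, carbonic anhydrase CA2, rose by 1.44, and their mean intensity was 11.7 to 12.4 in fetuses and 9.81 to 10.3 in newborns. In bulk tissue fewer cells of a type and less of an RNA per cell cannot be told apart. Of the defining markers of red cells SLC4A1, EPB42 and RHAG did not pass the filter on dim probes.

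Among the regulators of myogenesis more fell than rose. Of 19 tested 10 fell and 4 rose, with a median difference of -0.92. MYOG, which starts terminal differentiation, measured 15.68, 15.49, 15.62, 15.35 and 15.34 at 195 d and 11.10, 12.52 and 13.75 at birth. It fell by 3.14 ± 0.49 (adjusted p = 0.000547), with newborns spread over more than 2 units. MYOD1, which commits cells to the lineage, measured 14.70, 14.49, 14.57, 14.50 and 14.39 and then 11.04, 11.91 and 13.02, and fell by 2.52 (adjusted p = 2.78e-05). MYF6, the member of this family kept in adult fibres, rose instead, from 12.03, 11.42, 11.90, 11.79 and 11.79 to 13.11, 13.68 and 14.81 (adjusted p = 0.00184). MYF5 fell by 0.92, MEF2C by 0.65 and the Notch target HEYL by 2.73, whereas MEF2A rose by 0.95. MSTN, myostatin, the growth inhibitor that carries a known loss-of-function allele in Piedmontese cattle, fell by 1.43 (adjusted p = 0.0024). NES, nestin, an intermediate filament of immature fibres, fell 22.5-fold and was 16.13 or more in every fetus and 12.94 or less in every newborn.

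Nearly the whole cell cycle list was lower at birth. Of 26 genes tested 24 fell and 1 rose, with a median difference of -1.41. TOP2A, the topoisomerase of dividing cells, measured 10.82, 11.18, 10.91, 10.67 and 10.90 at 195 d and 7.36, 7.75 and 7.99 at birth, a 9.17-fold fall (adjusted p = 5.96e-07). CCNB2, a mitotic cyclin, fell 5.56-fold, and RRM2, a subunit of ribonucleotide reductase, 5.53-fold, although only 1 of 6 birth channels showed RRM2 above background. The exception was PCNA, the DNA clamp of replication, at 7.97 to 8.21 in fetuses and 8.42 to 9.21 in newborns, a rise of 0.61 ± 0.16 (adjusted p = 0.0113). Restricted to probes above background in all 12 channels the list kept 10 genes, of which 8 fell.

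The inhibitors of the cycle divided. Of 11 tested 7 rose and 4 fell. CDKN1A, the p21 inhibitor, measured 12.29, 12.31, 11.84, 11.98 and 11.52 at 195 d and 13.18, 15.23 and 15.74 at birth, and rose 6.89-fold (adjusted p = 0.000287). GADD45G, a stress-induced growth arrest gene, rose 7.65-fold and CCNG1, a p53 target, 4.27-fold. CDKN1C, the imprinted p57 inhibitor, fell instead, from 14.45, 13.94, 14.39, 13.82 and 13.83 to 10.93, 11.19 and 11.78 or 7.29-fold (adjusted p = 1.11e-05), as did CDKN2C by 1.22 and CDKN2D by 0.72.

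Matrix genes were lower at birth too. Of 27 genes of the fibrillar and basement membrane matrix 21 fell and 2 rose, with a median difference of -1.55. POSTN, periostin, measured 10.60, 11.19, 11.59, 11.43 and 10.69 at 195 d and 6.94, 7.04 and 7.26 at birth, where 3 of 6 channels were above background, and fell 15.6-fold (adjusted p = 1.71e-06). COL3A1, the chain of type III collagen, measured 15.36, 15.11, 15.16, 16.48 and 15.89 and then 12.02, 12.51 and 12.90, an 8.46-fold fall (adjusted p = 3.65e-05). Lumican (LUM) fell 13.6-fold and fibronectin (FN1) 9.42-fold, and COL1A1 and COL1A2 fell by 2.47 and 3.01. Elastin (ELN) rose by 1.01 ± 0.36 (adjusted p = 0.0391), with overlapping stages, and the laminin chain LAMC1 by 0.49. Fibroblast markers moved in the same direction, 11 of 12 lower and none higher, from a mean intensity of 12.4 to 13.2 in fetuses to 10.6 to 11.1 in newborns. COL1A1, COL3A1, LUM and DCN stand in both lists, and the part of cell number in these falls was not tested.

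Endothelial markers fell in 12 of 13, from a mean of 11.4 to 11.6 to one of 10.1 to 10.5, with the exception of VWF, which rose by 0.85. KDR, the main VEGF receptor, fell 4.73-fold and the junction protein CDH5 4.49-fold. Of 8 tendon and cartilage markers 5 fell, tenomodulin (TNMD) by 2.23 and fibromodulin (FMOD) by 2.66, and 1, the cartilage protein chondroadherin (CHAD), rose by 1.39 without overlap. Of the 20 leukocyte markers 6 fell and 3 rose, a called share of 45% against 55.7% over all genes. Their mean was 8.73 to 9.07 in fetuses and 8.68 to 9.38 in newborns. The complement genes of macrophages C1QA, C1QB and C1QC fell by 1.03, 0.99 and 1.02, and CD163, their scavenger receptor, rose by 1.63. The other rises were LCP1 by 0.50 and PTPRC, with overlapping stages, by 0.43. Of 7 Schwann cell and nerve markers ERBB3, a neuregulin receptor, fell by 3.06, PMP22 fell by 0.75 and MBP rose by 0.58, although PMP22 was at 0.08 with the processed signal. The called share of this list was 42.9%. Of 11 smooth muscle and pericyte markers 4 rose and 4 fell, NOTCH3 15.1-fold, and of 6 adipocyte markers 1 rose and 1 fell (33.3% called).

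Of 12 imprinted growth genes 9 fell and 1 rose. MEST measured 13.70, 14.32, 14.17, 14.10 and 13.98 at 195 d and 9.38, 10.25 and 10.92 at birth, and fell 14.97-fold (adjusted p = 2.71e-06). DLK1, a Notch ligand of fetal muscle and fat precursors, measured 17.83, 17.47, 17.35, 17.48 and 17.86 and then 14.16, 14.84 and 15.19, and fell 7.29-fold (adjusted p = 1.23e-06). IGF2, the fetal growth factor, fell by 0.87 (adjusted p = 0.000558) and its clearance receptor IGF2R by 0.94. PHLDA2, a growth restrictor known from the placenta, rose 3.19-fold. GPC3, a glypican that restrains growth signals, measured 14.93, 15.21, 15.32, 15.33 and 15.03 in fetuses and 9.91, 10.16 and 10.87 in newborns, a 29.5-fold fall (adjusted p = 1.36e-06).

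In the insulin-like growth factor axis 7 of 16 genes fell and 5 rose, beside 27.3% and 28.4% of all genes. The median of -0.28 turned to 0.06 with median centring and to 0.21 with the processed signal. The binding protein IGFBP4 fell by 2.53 and IGFBP6 by 1.88. SOCS2, the growth hormone feedback inhibitor, fell by 1.65 (adjusted p = 0.0203), but the stages overlapped: GW071 and GW175 stood at 11.86 and 12.09, within the fetal range of 11.70 to 12.67, and the other 4 newborns at 9.25 to 9.63. Without GW071 and GW175 SOCS2 fell by 2.57. The receptors IGF1R and INSR rose by 0.85 and 0.72. IGFBP1 was not above background in any fetal channel and passed the filter on dim probes only through its birth channels. By the stage means it was at least 1.79-fold higher at birth, with overlapping stages. IGF1 differed by -0.63 (adjusted p = 0.094) and the growth hormone receptor GHR by 0.50 (adjusted p = 0.139), and neither was called.

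The largest rises were in genes of fuel choice. PDK4, the kinase that shuts pyruvate out of the citric acid cycle, measured 7.87, 7.72, 7.61, 7.79 and 7.63 at 195 d and 14.20, 15 and 15.85 at birth. Its rise of 7.30 ± 0.29, or 157-fold (adjusted p = 6.48e-07), was the largest of all named genes. UCP3, the mitochondrial carrier induced by fatty acids, measured 7.75, 7.54, 7.46, 7.62 and 7.75 and then 12.48, 13.63 and 14.69, and rose 61.1-fold (adjusted p = 6.47e-06). ACADM, the medium-chain acyl-CoA dehydrogenase, measured 9.501, 9.35, 9.59, 9.25 and 9.49 and then 12.67, 13.18 and 13.67, and rose 13.3-fold (adjusted p = 2.3e-06). No fetus came near the newborns in these genes. Of 28 genes of fatty acid uptake and oxidation 22 rose and none fell, with a median of 1.07. They included FABP3, which carries fatty acids in the cytosol (rise of 2.60), LPL, which frees them from lipoproteins (2.13), the carnitine carrier SLC25A20 (2.13) and both CPT1A (1.98) and CPT1B (1.17), which admit them to mitochondria. CPT2 and the transporter SLC27A1 were not called, at 0.19 and -0.26.

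The mitochondrial lists rose with them. In the citric acid cycle and pyruvate oxidation 22 of 24 genes rose, and in the respiratory chain 38 of 46, and none of either list fell. Their medians were 1.23 and 0.77. GOT2, the mitochondrial aspartate aminotransferase, measured 9.42, 9.71, 9.44, 9.31 and 9.95 at 195 d and 12.16, 12.51 and 12.66 at birth, a 7.37-fold rise (adjusted p = 9.48e-07). MDH2, malate dehydrogenase, rose 5.55-fold and DLD, the shared E3 subunit of the dehydrogenase complexes, 4.14-fold. CYCS, cytochrome c, measured 11.01, 11.31, 11.23, 11.49 and 11.30 and then 13.53, 13.83 and 14.07, a 5.95-fold rise (adjusted p = 2.73e-06). NDUFS1 of complex I rose 3.07-fold and UQCRFS1 of complex III 3.04-fold. The spread over subunits was wide, and COX7A2 (-0.40), COX6A2 (-0.23) and NDUFB8 (0.16) were among the 8 that did not pass.

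Of 18 genes listed as mitochondrial regulators and energy buffers 9 rose and 1 fell. The rises counted include ANKRD1, an ankyrin repeat protein like ANKRD2, by 3.88. CKMT2, the creatine kinase of muscle mitochondria, measured 9.82, 10.45, 9.78, 9.88 and 10.20 at 195 d and 14.05, 14.84 and 15.03 at birth, and rose 25.4-fold (adjusted p = 8.06e-07). The cytosolic muscle form CKM rose 2.73-fold, and CKB, the brain form that early muscle uses, fell by 0.93, with overlapping stages. ESRRA, a nuclear receptor that drives mitochondrial genes, measured 10.68, 11.16, 10.59, 10.92 and 11.21 and then 13.57, 13.86 and 14.05, and rose 7.56-fold (adjusted p = 2.4e-06). Its coactivator PPARGC1A differed by 0.19 (adjusted p = 0.604), NRF1 by 0.03 and PPARA by 0.28, and none of these was called. Myoglobin (MB) rose by 1.71 and the mitochondrial transcription factors TFAM and TFB2M by 0.78 and 1.86.

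In glycolysis 12 of 20 genes rose and 1 fell. PFKFB3, which makes the activator of phosphofructokinase, measured 10.26, 10.61, 10.76, 10.001 and 10.86 at 195 d and 15.52, 16.77 and 17.59 at birth, a 77.8-fold rise (adjusted p = 2.04e-06). GPD1, glycerol-3-phosphate dehydrogenase, rose 4.53-fold and pyruvate kinase PKM 3.98-fold, and SLC2A4, the insulin-regulated glucose transporter, by 0.91. HK1, the hexokinase of fetal tissue, fell by 1.18 (adjusted p = 0.000496). ALDOA (-0.03), ENO3 (0.07) and TPI1 (0.07) did not pass. Of 14 genes of glycogen metabolism 11 rose and 1 fell, and 7 rose without the 195 d array of slide 2. PHKA1, the muscle alpha subunit of phosphorylase kinase, measured 10.60, 10.67, 10.14, 10.04 and 10.22 and then 13.25, 14.18 and 14.55, and rose 12.2-fold (adjusted p = 1.99e-06). The phosphorylase PYGM rose by 1.45 and the glycogen synthase GYS1 by 0.44, while PPP1R3C, which targets a phosphatase to glycogen, fell by 1.29.

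**Figure D3:**
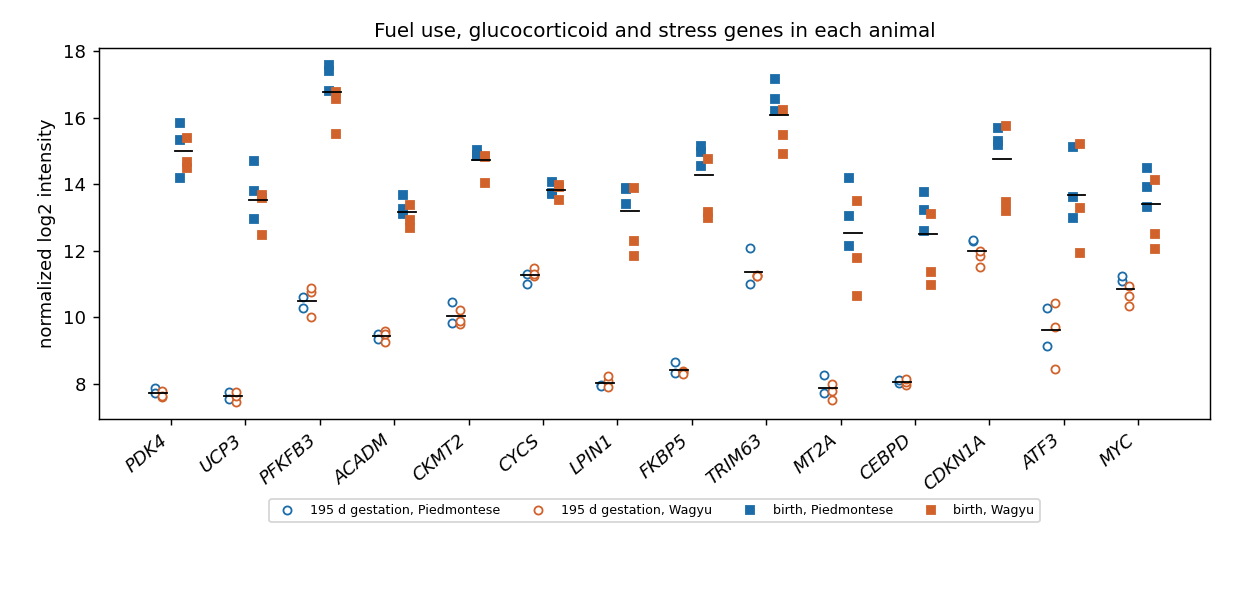
Normalized log2 intensity of 14 genes of fuel use, the glucocorticoid response and stress in each of the 11 animals, with symbols as in the plot of contractile genes and bars for the stage means. Every newborn lies above every fetus in all 14 genes, and the newborns spread widely in MT2A (10.63 to 14.18) and ATF3 (11.93 to 15.22).

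Of 20 targets of glucocorticoids and of muscle catabolism, a list chosen with earlier results of these data known, 17 rose and none fell. Their median difference was 2.15. FKBP5, the cochaperone that dampens the glucocorticoid receptor and is induced by it, measured 8.33, 8.64, 8.39, 8.34 and 8.31 at 195 d and 12.99, 14.65 and 15.16 at birth, a 59.4-fold rise (adjusted p = 1.19e-06). TRIM63, the ubiquitin ligase MuRF1, measured 12.08, 11.01, 11.24, 11.27 and 11.25 and then 14.90, 16.21 and 17.15, and rose 26.3-fold (adjusted p = 1.22e-05). The other muscle ligase of atrophy, FBXO32, rose by 3.45 (adjusted p = 0.000888). MT2A, a metallothionein, measured 7.72, 8.28, 7.52, 7.78 and 8.002 and then 10.63, 12.59 and 14.18, and rose 25.9-fold (adjusted p = 8.64e-05). CEBPD, a transcription factor induced by glucocorticoids and cytokines, measured 8.03, 8.11, 7.95, 8.05 and 8.14 and then 10.98, 12.86 and 13.77, and rose 22.7-fold (adjusted p = 1.89e-05). In FKBP5, TRIM63, MT2A and CEBPD the newborns that stood apart, GW071 and GW175, were the lowest at birth, and without them 18 of the 20 list members rose. In FKBP5 they stood at 13.15 and 12.99 and the other newborns at 14.55 or more, and in CEBPD at 11.36 and 10.98 against 12.61 or more. KLF9 rose by 4.02, glutamine synthetase (GLUL) by 3.40, ZBTB16 by 3.29 and the mTOR inhibitor DDIT4 by 2.38. The receptor itself, NR3C1, differed by -0.33 (adjusted p = 0.352), HSD11B1, which regenerates cortisol, by 0.18 (adjusted p = 0.527) and SGK1 by 0.17 (adjusted p = 0.349), and these 3 were the members not called.

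Of 11 genes listed under thyroid and growth hormone, receptors among them, 7 rose and 1 fell. The largest rise on this list was 5.93, that of UCP3 given above with the fuel genes. The thyroid hormone receptors moved apart. THRB measured 7.80, 7.79, 7.79, 8.17 and 7.98 at 195 d and 9.67, 10.27 and 10.44 at birth, and rose 4.77-fold (adjusted p = 1.56e-05). THRA measured 14.52, 14.37, 14.35, 14.43 and 14.51 and then 12.75, 12.93 and 13.07, and fell 2.88-fold (adjusted p = 2.28e-06). ATP1B1, a subunit of the sodium pump, rose 4.56-fold.

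Of 27 immediate early and heat shock genes 16 rose and 3 fell. ATF3, an early stress factor, measured 10.26, 9.15, 9.72, 10.43 and 8.46 at 195 d and 11.93, 13.45 and 15.22 at birth, an 18.7-fold rise (adjusted p = 0.000616). MYC rose 5.93-fold and CRYAB, a small heat shock protein of the Z-disc, 5.49-fold, with no overlap between stages. FOS differed by 2.58 ± 1.09 and was not called (adjusted p = 0.069), nor was EGR1 at 0.43. IER2 and IER3 fell by 1.07 and 1.43 and the cochaperone DNAJB1 by 0.72, the last with overlapping stages. The call was lost in 6 of 20 alternatives for IER2 (largest adjusted p = 0.185) and in 8 for DNAJB1 (0.317). How the biopsies of fetuses and newborns were obtained is not given in the sources used here, and the part of sampling in these differences was not tested.

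In lipid metabolism LPIN1, which makes diacylglycerol and coactivates fat oxidation, measured 7.97, 7.92, 8.08, 7.91 and 8.23 at 195 d and 11.83, 13.63 and 13.89 at birth, and rose 37.2-fold (adjusted p = 5.95e-06). The lipases PNPLA2 and LIPE rose by 1.99 and 2.15. The fatty acid desaturases fell, FADS1 by 2.67 and FADS2 by 1.47, and FASN (-0.07) and SCD (-0.24) were not called. Over the adipocyte and lipid synthesis list 10 of 26 rose and 4 fell, a share of rises that can be set beside 28.4% over all genes. Of 18 genes of cholesterol synthesis 8 fell and 1 rose, and 4 fell with median centring. Their regulator SREBF2 fell by 1.93 (adjusted p = 3.79e-06).

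Of 19 genes of antigen presentation and the interferon response 11 fell and none rose, and 7 fell without the 195 d array of slide 2. BOLA-DRA, the alpha chain of the class II molecule, was at 11.25 to 11.91 in fetuses and 9.09 to 10.21 in newborns and fell 3.76-fold, and CIITA, the class II transactivator, fell by 1.34. Of the class I pathway the transporter chain TAP2 fell by 0.47, and B2M (0.25) and TAP1 (0.29) did not pass. In the circadian clock list 7 of 16 genes rose, among them NFIL3 by 2.02 and RORA by 1.55, and 3 fell. CRY2 fell by 1.48. Times of sampling are not given in the sources used here, and 4 rose without the 195 d array of slide 2. Of 28 ribosomal protein genes 10 fell and 1 rose, with a median of -0.26 that turned to 0.58 with median centring and 0.83 with the processed signal, so that no direction can be given for this group. Of 20 HOX and patterning genes 6 rose and 7 fell, shares near the 28.4% and 27.3% over all genes. HOXD9, HOXC10 and TBX15 rose by 1.27, 0.92 and 1.56, and SOX4, SOX11 and MYCN, genes of embryonic progenitors, fell by 3.17, 1.92 and 1.84.

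**Figure D4:**
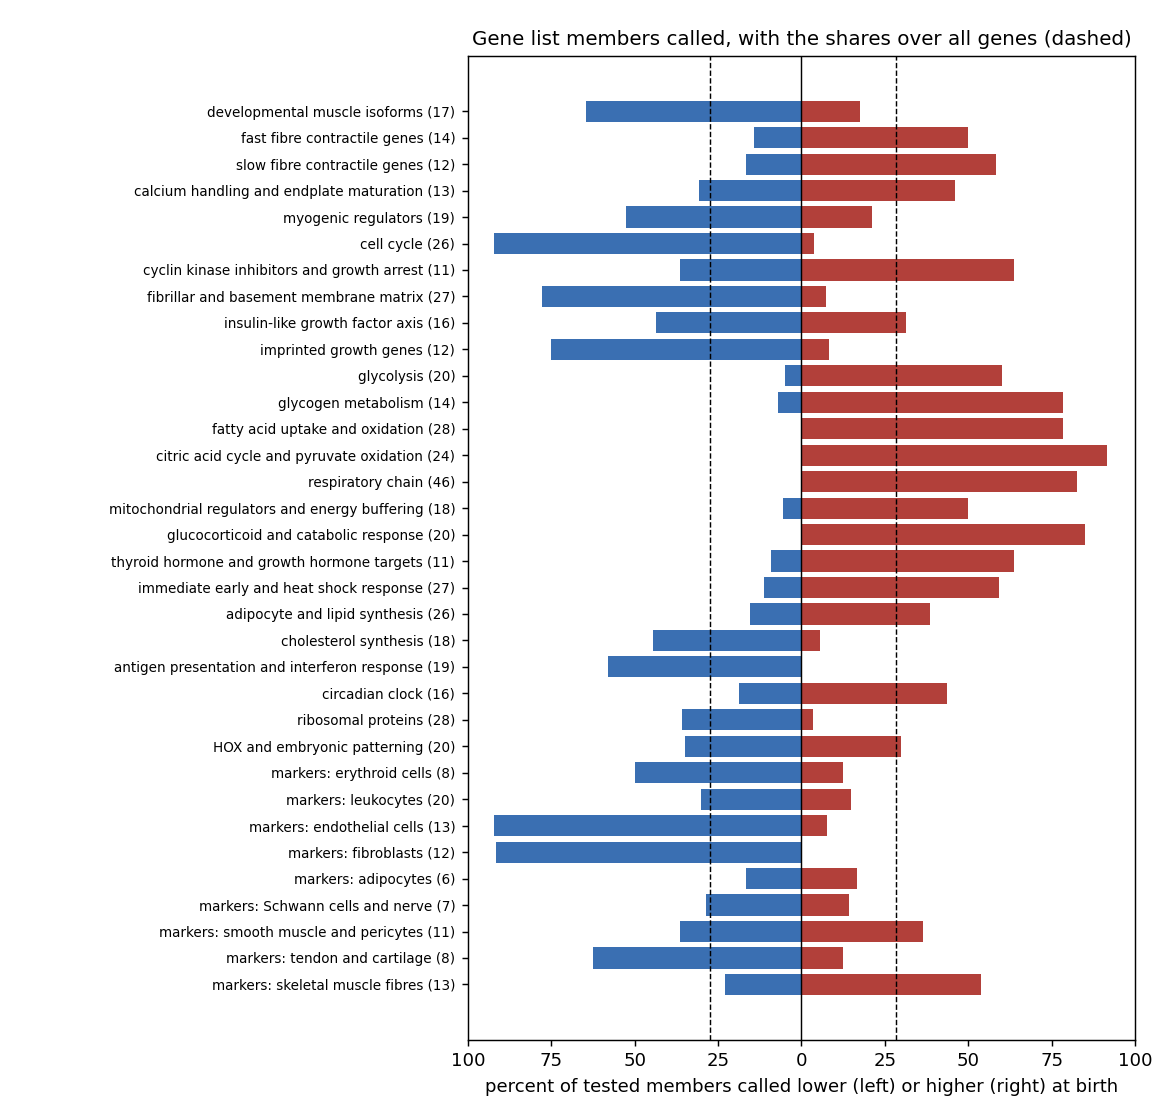
Percent of the tested members of each gene list (number tested in parentheses) called lower at birth, to the left in blue, or higher, to the right in red, with dashed lines at the shares over all 14833 genes, 27.3% and 28.4%. The mitochondrial, fatty acid and glucocorticoid lists lie to the right and the cell cycle, matrix, fibroblast and endothelial lists to the left of these lines. The lists were chosen with earlier results of these data known.

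Several of the genes with the largest differences belong to none of these lists. PDXK, which makes active vitamin B6, measured 7.76, 8.10, 7.65, 7.73 and 7.96 at 195 d and 12.64, 13.06 and 13.88 at birth, and rose 38.8-fold (adjusted p = 1.48e-06). ARRDC2, an arrestin-related protein, rose 26.0-fold (adjusted p = 7.14e-06) and the deubiquitinase OTUD1 23.1-fold (adjusted p = 0.000393), the latter with newborns from 9.83 to 13.92. F2, prothrombin, best known from liver, measured 13.12, 12.80, 13.20, 12.87 and 12.86 in fetal muscle and 7.51, 7.63 and 8.16 in newborns, a 38.6-fold fall (adjusted p = 2.9e-07). MAGED4B measured 16.09, 15.76, 16.00, 16.11 and 16.08 and then 10.72, 10.88 and 11.12, a 34.1-fold fall (adjusted p = 3.99e-08) with almost no spread within a stage. PRND, a relative of the prion protein, fell 32.4-fold and the neuronal beta-tubulin TUBB2B 23.0-fold.

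The earlier fetal stages on the same slides place these differences in time. With the 12 arrays normalized together there were 2 animals at 60 d, where the median is their mean, 5 at 135 d, 5 at 195 d and 6 at birth. The medians over animals at 60, 135 and 195 d and at birth were 17.18, 17.62, 17.53 and 10.72 for MYH3. MYH8 stood at 11.68, 12.43, 13.64 and 7.00, highest at 195 d and lowest at birth. MYH1 stood at 11.86, 13.57, 16.28 and 16.95, so that most of its difference lay between 135 and 195 d. The cell cycle gene TOP2A was lower at each stage, at 13.20, 11.84, 11.14 and 7.92. PDK4 stood at 7.25, 7.59, 7.90 and 14.90, with nearly all of its difference after 195 d. FKBP5 was lower at 195 d than before and highest at birth, at 11.21, 10.09, 8.595 and 14.57. These levels carry no test. At 135 d the Piedmontese GP672 stood apart, with correlations of 0.918 to 0.924 with the other animals of that stage, and it was the lowest in MYL4, MYH3, MYH8, MYOG and CHRNG.

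**Figure D5:**
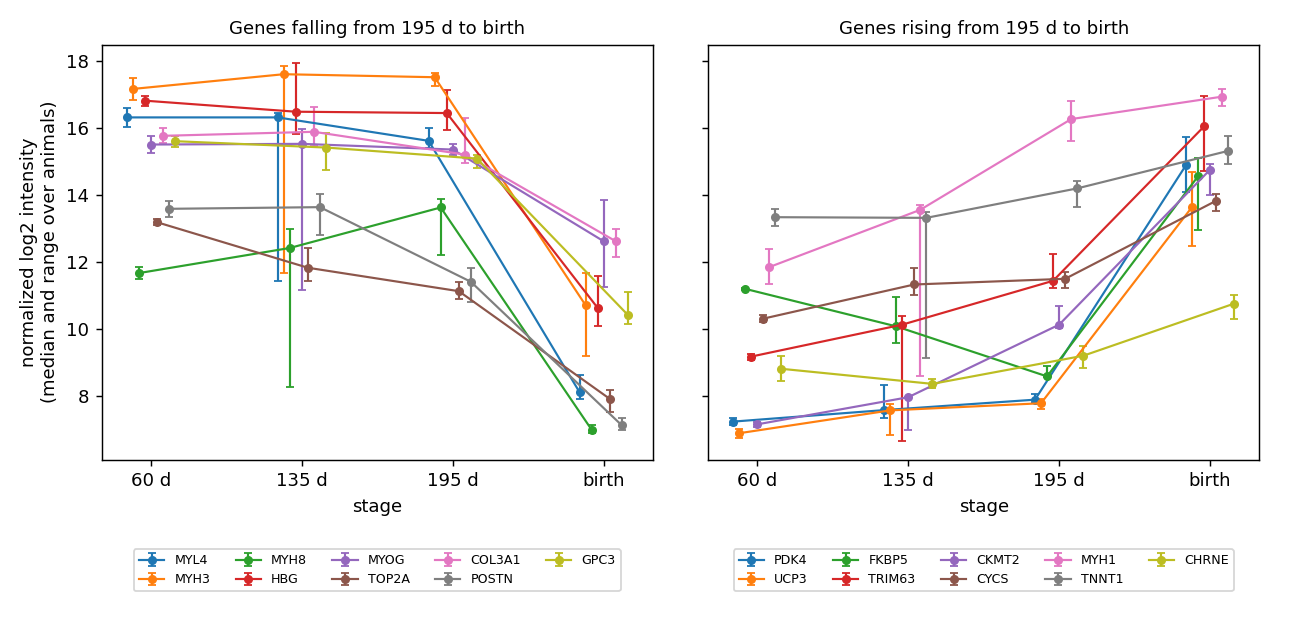
Median normalized log2 intensity over animals at 60 (n = 2), 135 and 195 d of gestation and at birth, with bars from the lowest to the highest animal, for 9 genes that fell and 9 that rose from 195 d to birth. MYH3 keeps a high median until 195 d (17.53) and drops at birth (10.72), PDK4 stays low until 195 d (7.90) and is high at birth (14.90), and the long bars at 135 d include the animal GP672.

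Whether the difference between stages itself differed between the crosses was tested by the interaction of stage and cross. No gene was called in limma, 971 of 14833 genes (6.55%) had an unadjusted p below 0.05, and the smallest adjusted p was 0.274. From the deposited log ratios, 3 arrays against 3, 1 gene was called and 10.5% had an unadjusted p below 0.05. With 2 or 3 animals of a cross at a stage this does not show that the crosses were alike. The smallest p belonged to RAB9A, a small GTPase of endosomes, which differed by 1.30 in Piedmontese and 0.09 in Wagyu, a difference of 1.21 ± 0.16 (adjusted p = 0.274). OAT, ornithine aminotransferase, differed by 1.38 and 0.23. MYL7 had the next smallest p, but no birth channel was above background, so that its interaction sets only the fetuses of the crosses apart, at 11.34 and 12.70 in Piedmontese and 9.51, 9.49 and 10.18 in Wagyu.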

How the data were processed

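RNA of longissimus dorsi biopsies was hybridised to 2-colour Agilent arrays. The authors deposited, for each spot and channel, intensities, background and flags from Agilent Feature Extraction 9.5.1 (per the labels), and log10 ratios of Cy5 over Cy3, which were identical in the series table.

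Intensities were corrected by normexp (offset 50, which compresses low values), loess normalized within and Aquantile normalized between the 6 arrays in limma 3.58.1 (R 4.3.3). Spots with an outlier flag were dropped before averaging spots by probe and probes by gene. A RefSeq gene (table of ARS-UCD2.0, names only) was assigned to 15888 of the 21475 probes by transcript, number, symbol or, for 1994, the description, and the others kept their file name. Probes well above background in at least 6 of 12 channels were kept, and 15427 gave 14833 genes. Of these genes 121 were not well above background in any birth channel and 13 in any 195 d channel. They passed only through the other stage, so that their calls are not independent of the filter. Channels of an animal were averaged. The fit (lmFit, eBayes) had 4 means of stage by cross and a dye term, with the array as random block (correlation 0.317) and arrays that share GP041A as 1 block. In a simulation of 14833 genes, 200 of which were shifted by 1 log2 unit, it found 91.0% of these and made 9 false calls. The simulated noise was normal, with the fitted variances and block correlation, and equal in both stages. In the data 55.7% of genes were called and the newborn SD was the larger in 74.5%. The simulation therefore does not give the rate of false calls here. The number of arrays limits precision.

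The members and gene lists were chosen with earlier results of these data known. Named were the 12 largest rises and 12 largest falls among called genes with a symbol, non-overlapping animals and probes that move the same way, up to 3 called rises and 3 falls per list, the isoform genes and the 3 smallest interaction p-values. Other list members are given by value. The labels give the slide, so that slides pair the arrays. By slide, the deviations of the paired arrays from their stage means correlated at 0.334, 0.186 and 0.340. No correlation between different slides is given beside these. The main fit had no slide term, so that its p-values do not use this pairing. A slide term gave 9918 calls against 8263.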

Additional observations from a re-analysis of the deposited data

Results flagged for a closer look

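A gap test for a single animal far from the others of its stage (Dixon's test at 95%) was run for the named genes at both stages, 332 groups in all. It picked out 16 (4.82%), and chance alone picks about 1 in 20. At 195 d GW067 was the lowest in MYH8 at 12.2 (the nearest fetus was at 13.6), and the highest in BOLA-DRA at 11.9 and ELN at 9.78. GP041B was the highest in FKBP5 at 8.64 and PCNA at 8.21, GW024 in LCP1 at 7.75 and GP041A in TRIM63 at 12.1. Among newborns GW175 was the highest in CIITA at 10.3, F2 at 8.16 and IGFBP6 at 13.5, and the lowest in TTN at 11.1. GW146 was the lowest in CDH5 at 10.2 and CKMT2 at 14.0, GP193 the lowest in HEYL at 9.55 and the highest in LCP1 at 8.51, and GP147 the highest in TNNT2 at 7.59. In all 16 groups except that of ELN the animals of the 2 stages did not overlap.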

How the results depend on the processing

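With the slide as a fixed term (a replicate block) 9918 genes were called, 445 list members against 414 and 0 interaction genes, and no named gene changed its call. Leaving out each of the 6 arrays gave 5344 to 8462 calls for birth against 195 d, the lowest without the 195 d array of slide 2, 319 to 413 list members and 0 to 2 interaction genes. The interaction gave 1 gene without the birth array of slide 1 or the 195 d array of slide 2, 2 without the 195 d array of slide 3, and 1 from the deposited log ratios. Array-by-dye median centring gave 4892 calls, and the cause of this fall was not tested. Counting GP041A and GP041B as 1 animal gave 5987 calls and 339 list members, and 22 of the 166 named genes lost their call. The other alternatives gave 6562 to 9918 calls for birth against 195 d. Without GW071 and GW175, an alternative chosen after seeing the data, there were 8556 calls, 7605 of them shared with the reported ones, and 415 list members.

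Of the 166 named genes 117 kept their call and direction in every alternative in which they were tested, and 8 reversed in at least 1. With median centring these were RPL23 (0.41), TNNT3 (0.25), MYL1 (0.57), ACTA1 (0.51), MYBPC1 (0.28), RPS4X (0.0217) and HRC (0.0381). With the Feature Extraction processed signal they were RPL23 (0.65), TNNT3 (0.48), MYL1 (0.84), PMP22 (0.0786), ACTA1 (0.74), MYBPC1 (0.54), RPS4X (0.25) and HRC (0.30). The cause was not tested. The median of the HOX list, which is near 0, changed sign under 5 alternatives. MYH8 and RRM2 were above background in 1 of 6 birth channels each, so that the size of their fitted falls is uncertain.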
